A study of Drosophila melanogaster with 2 samples.

Results

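Of 3921 places in the fly genome where CG8281 was mapped with both replicates combined, 390 (9.95%, exact 95% interval 9.03 to 10.9%) lay in the stretch just upstream of a gene's promoter. These upstream proximal summits were chosen by position alone: the point of highest signal of each peak, its summit, had to lie 501 to 2000 bp from the nearest transcription start site (TSS) of a protein-coding gene, on the upstream side by that gene's strand. Signal played no part in this choice among the 3921, which had themselves been selected from longer lists of 30000 peaks each. The other optimal summits were 1383 within 500 bp of a TSS, 457 that lay 501 to 2000 bp downstream and 1691 farther than 2000 bp from any. The method was chromatin immunoprecipitation with sequencing (ChIP-seq), in which DNA crosslinked to a protein is pulled down with an antibody, sequenced and aligned to the genome. The material was whole Drosophila melanogaster embryos, 0 to 20 hours old, of a transgenic line whose CG8281 ends in a C-terminal GFP tag, and the pull-down was directed at that tag. Both replicates came from the same line, and the samples were whole organisms, so the values are averages over the tissues and stages of these embryos. There was 1 group of 2 biological replicates and no second condition.

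Sequence just upstream of a promoter is a common place for enhancers, the stretches of DNA that bind transcription factors and set where and when the gene is transcribed. In Drosophila many developmental regulators, such as those of the Enhancer of split complex, carry enhancers within a few kilobases of their start sites. Many fly genes also have alternative start sites, so that a position upstream of one start site is often still inside the gene, usually in an intron. A ChIP-seq peak shows where the tagged protein was recovered, not whether the site acts on the nearest gene.

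The strongest upstream proximal peaks held runs of the dinucleotide GA at a spacing of 4 bases. The sequences below are 101 bases centred on the summit, read from the RefSeq genome of the dm6 build. They are the 7 with such a run of 4 or more steps, followed by the 3 strongest others, among the 20 strongest upstream proximal summits on 2L, 3L, 3R and X. Capitals mark the longest run of GA steps where it has 3 steps or more, and a window is shown on the strand that carries it.
CG10479: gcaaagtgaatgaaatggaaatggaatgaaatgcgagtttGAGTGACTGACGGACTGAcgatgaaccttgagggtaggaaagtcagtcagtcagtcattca
E(spl)m5-HLH: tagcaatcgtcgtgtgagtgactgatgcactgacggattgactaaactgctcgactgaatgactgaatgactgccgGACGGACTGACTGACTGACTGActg
zfh1: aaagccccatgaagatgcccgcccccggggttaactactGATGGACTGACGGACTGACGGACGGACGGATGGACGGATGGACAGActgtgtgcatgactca
CG3793: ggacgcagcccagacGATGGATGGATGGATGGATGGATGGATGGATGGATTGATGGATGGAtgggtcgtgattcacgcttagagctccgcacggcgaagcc
Lmpt: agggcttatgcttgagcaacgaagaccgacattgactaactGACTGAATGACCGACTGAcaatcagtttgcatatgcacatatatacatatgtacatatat
Jhbp2: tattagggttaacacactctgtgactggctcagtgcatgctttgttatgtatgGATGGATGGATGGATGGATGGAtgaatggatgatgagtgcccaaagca
cbt: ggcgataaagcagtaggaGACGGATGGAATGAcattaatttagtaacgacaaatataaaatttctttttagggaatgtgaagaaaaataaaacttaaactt
Tollo: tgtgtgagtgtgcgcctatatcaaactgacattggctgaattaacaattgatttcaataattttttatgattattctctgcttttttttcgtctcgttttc
CG8034: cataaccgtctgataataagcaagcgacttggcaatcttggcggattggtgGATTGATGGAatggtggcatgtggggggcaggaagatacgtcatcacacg
RtGEF: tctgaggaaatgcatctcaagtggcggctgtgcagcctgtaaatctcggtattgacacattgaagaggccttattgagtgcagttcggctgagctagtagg
The window at CG10479 (FBgn0035656) was chr3L:5976750-5976850 on the + strand, and that at E(spl)m5-HLH (FBgn0002631) was chr3R:26030835-26030935 on the + strand. Both lay between genes, 793 bp and 1150 bp upstream of the TSS. The window at zfh1 was chr3R:30781266-30781366 on the - strand, and its 12 steps filled 46 bases. The zfh1 summit lay within that gene's body, in an exon of a gene not annotated as protein-coding. The window at CG3793 was chr2L:15763565-15763665 on the + strand, between genes, and also held 12 steps in 46 bases. The window at Lmpt (chr3L:16886319-16886419, + strand) lay in an intron of that gene, and that at Jhbp2 (chr3R:4962016-4962116, - strand) between genes. The window at cbt (chr2L:481049-481149, - strand) lay in an intron of ush. Of the other 3, Tollo (chr3L:15234255-15234355, + strand) lay between genes. CG8034 (chrX:19285503-19285603, + strand) and RtGEF (chr2L:20352350-20352450, + strand) lay in introns of those genes.

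The 2 strongest of these peaks were among the strongest of the whole data set in both replicates. The values given are the authors' signal per peak, whose scaling is not stated, so they are compared only within a list. The peak upstream of CG10479 had a signal of 14267.9 in the optimal list, where it ranked 3. Its signal was 5428.95 in replicate 1 at rank 5 and 8885.97 in replicate 2 at rank 2. The peak upstream of E(spl)m5-HLH, which encodes a Notch-responsive repressor of the basic helix-loop-helix (bHLH) family, had a signal of 12572.6 at rank 5. It reached 4796.76 in replicate 1 at rank 8 and 7772.08 in replicate 2 at rank 5. These 2 signals stood well above the third, zfh1, a zinc finger and homeodomain transcription factor gene of the mesoderm, at 5134.68. The zfh1 peak had a signal of 2698.36 in replicate 1 at rank 28 and of 2485.5 in replicate 2 at rank 41.

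The next peaks lay by genes of varied roles. CG3793 (signal 3118.83, ranks 59 in replicate 1 and 67 in replicate 2) was followed by Lmpt, a LIM domain protein gene (3035.75, ranks 93 and 54). Jhbp2, named as a juvenile hormone binding protein gene, came next (2964.65, ranks 78 and 60). The actin regulator gene ena (2883.22, ranks 60 and 78) and tej, a germline piRNA pathway gene (2691.21, ranks 69 and 82), were the next, and these 8 members made up the share of the 100 strongest optimal peaks that lay in upstream proximal sequence. Tollo, a Toll family receptor gene, had a signal of 2122.8, CG8034 one of 2039.42 and cbt, a Krüppel-like zinc finger gene, one of 2033.88. The remaining 9 of the 20 strongest ran from 1853.18 at RtGEF, a guanine nucleotide exchange factor gene, to 1143 at chif, a gene of DNA replication and chorion gene amplification. Between these lay CG42287, CG14915, the kinase gene Lk6, e(y)2b, the HMG box gene HmgZ, CG4409 and the cytochrome P450 gene Cyp49a1. All 20 overlapped peaks among the 3921 strongest of each replicate, with ranks of at most 396 in replicate 1 and 322 in replicate 2. The widest gap in this group was at RtGEF, which ranked 396 in replicate 1 and 79 in replicate 2. By position, 10 of the 20 lay in introns, 9 between genes and 1 in an exon of a gene not annotated as protein-coding.

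The bulk of the upstream proximal peaks were far weaker. The median signal was 212.9, within a range from 123.0 to 14267.9, beside a median of 231.5 for summits within 500 bp of a TSS, 209.0 downstream and 209.4 beyond 2000 bp. Divided by signal into 5 groups of 78, the members of the strongest group had signals of 407.3 or more and those of the weakest 148.6 or less. Signal did not follow distance within the range: Spearman's rho between them was 0.0114 over the 390 members, given as a description, since members of 1 gene share sequence. At the lower end the nearest members were foxo (504 bp, signal 301.2), erm (505 bp, 308.4) and CG6602 (510 bp, 153.5), and the summits just outside it were CG9981 (500 bp, 174.1), Picot (498 bp, 248.5) and CG3348 (497 bp, 201.9). At the upper end the members were Irk1 (1992 bp, 168.9), E2f1 (1985 bp, 168.6) and yellow-e (1981 bp, 811.7). Just outside lay CG43736 (2007 bp, 135.5), px (2010 bp, 214.1) and Ldsdh1 (2011 bp, 375.0). The limits thus cut through peaks of like signal.

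Upstream proximal sequence held slightly more summits than the arms as a whole, and far fewer than the sequence nearer the TSS. All positions of the chromosome arms, 4, X and Y included, were classed by the rule used for the summits, which gave 11150419 upstream proximal bases, 8.11% of the total. The members came to 3.50 summits per 100 kb, beside 2.85 over all arms, a ratio of 1.23 (95% Poisson interval 1.11 to 1.35). The first 250 bp upstream of a TSS held 20.1 per 100 kb and the next 250 bp 10.7. From 501 to 750 bp the density was 4.46 (3.67 to 5.36), and in the 5 bins from 751 to 2000 bp it lay between 2.75 and 3.99. Upstream of 2000 bp, to 5000 bp, it lay between 1.53 and 3.31. Most of the decline was therefore over before the range began. The ratio to the arms depended on which start sites were counted. When each gene was given its 5′-most TSS alone, 251 summits qualified and the ratio was 0.919 (0.809 to 1.04), below 1.

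**Figure D1:**
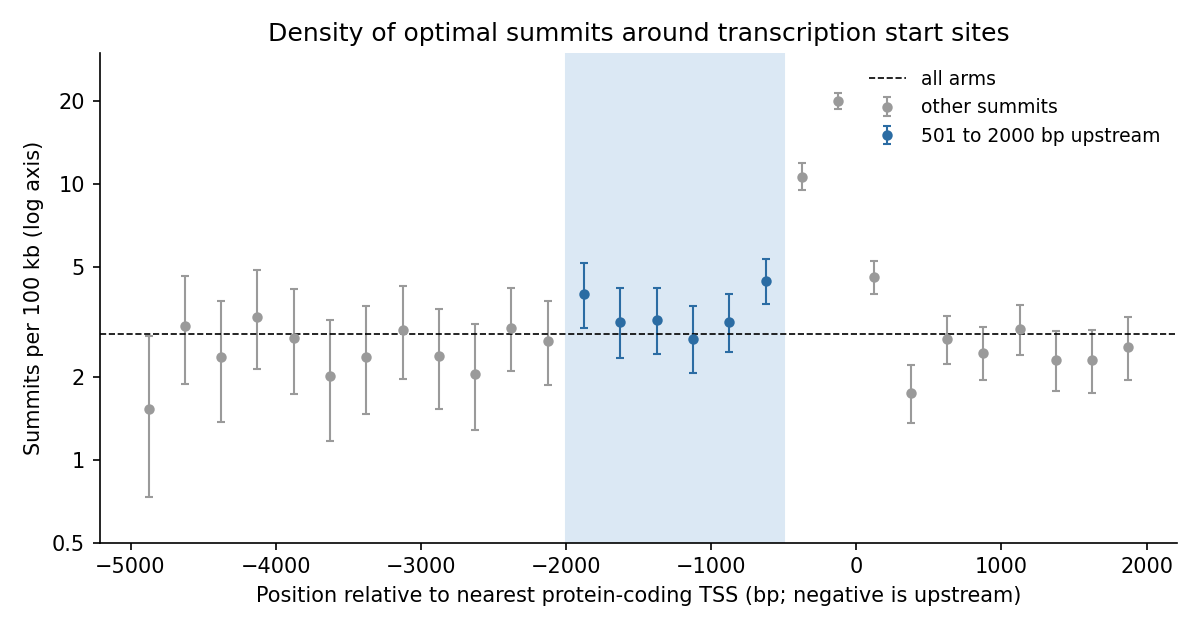
Optimal summits per 100 kb of sequence (log axis) against their position relative to the nearest protein-coding TSS, in bins of 250 bp, with negative positions upstream. Bars are 95% Poisson intervals for counting error, the dashed line is the value of 2.85 for all arms, and the shaded stretch holds the 390 upstream proximal summits, whose bins run from 2.75 to 4.46.

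The members lay in introns and between genes, and none lay in coding sequence. Introns held 209 of them (53.6%, exact interval 48.5 to 58.6%), beside 30.8% of upstream proximal bases, and sequence between genes 153 (39.2%, 34.4 to 44.3%), beside 39.5%. Coding sequence held 0 of 390, which allows a share of up to 0.941%, although it made up 16.3% of the bases. Over all optimal summits it held 14 of 3921, so few summits of any class lay in it. The 3′ UTRs held 9 (2.31%, 1.06 to 4.34%), beside 9.15% of the bases, and the 5′ UTRs 2 (0.513%, 0.0622 to 1.84%), beside 0.745%. Exons of genes not annotated as protein-coding held 17 (4.36%, 2.56 to 6.89%), beside 3.44%. Coding sequence was also counted at positions around the members. Such positions can fall in any distance class, so the 16.3% is no like background for them. Of the positions 1000 bp to one side or the other of the summits, 40 (10.3%) and 26 (6.67%) lay in it, and of those 500 bp away 10 (2.56%) and 9 (2.31%). Whether peak calling treated coding sequence differently was not tested.

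Many of these summits were upstream of an alternative start site and inside the gene itself. The body of the nearest TSS's own gene held 171 members (43.8%, 38.9 to 48.9%), 53 lay only within another protein-coding gene (13.6%, 10.3 to 17.4%), and 166 lay outside protein-coding genes (42.6%, 37.6 to 47.6%). The median signal was 194.5 inside the own gene, 239.5 in another gene and 220.8 outside genes, beside 212.9 for all members. Whether the groups differ was not tested. Of all members, 85 lay outside genes between 2 genes that point away from each other (21.8%, 17.8 to 26.2%), and in 12 of these the start site on the other side was within 2000 bp too. The E(spl)m5-HLH summit missed that limit narrowly, with the start site of E(spl)m6-BFM 2026 bp away on its other side. A start site of a gene annotated as ncRNA lay within 500 bp of 24 members (6.15%, 3.98 to 9.02%), beside 3.56% of upstream proximal positions. Another optimal summit lay within 2000 bp of 145 members (37.2%, 32.4 to 42.2%), beside 28.9% of all optimal summits. The share was 34.8% for summits 501 to 2000 bp downstream, 24.6% within 500 bp of a TSS and 29.0% beyond 2000 bp.

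The X chromosome carried 96 members, the most of any arm, followed by 3R with 86, 2R with 78, 2L with 69 and 3L with 61. Relative to the density of members over all arms, the ratio was 1.37 on X (95% Poisson interval 1.11 to 1.67) and between 0.801 and 1.02 on the other 4 long arms, whose intervals all held 1. Of the optimal summits on X, 13.2% were upstream proximal, and on the other long arms between 7.31% and 10.9%. Chromosomes 4 and Y held none, with 90033 and 34500 upstream proximal bases. Members on X overlapped the strongest peaks of both replicates in 82.3% (73.2 to 89.3%) and those on other arms in 68.4% (62.7 to 73.6%). Copy number of X in the embryos and how well reads map there were not tested.

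The replicates placed most of these peaks among their strongest. Of the 390 members, 280 overlapped by 1 bp or more one of the 3921 strongest peaks in each replicate (71.8%, exact interval 67.0 to 76.2%), beside 68.2% of all 3921 optimal peaks. The optimal list was made from the same replicates, so this share is no independent check. Peaks of any strength were found in both replicates for 384 members. The 6 others included 5 without a peak in replicate 2, namely Boot (signal 452.6), chb (225.5), SERCA (199.8), CG14636 (175.5) and CG43347 (145.8), and 1 without a peak in replicate 1, Diap1 (174.0). Over the 384, ranks in the replicates had a Spearman rho of 0.606, and 185 of them stood nearer the top in replicate 1. The largest disagreements went both ways. E(spl)m3-HLH ranked 11422 in replicate 1 and 607 in replicate 2, and Aldh-III 9274 and 954. One of the summits at chinmo ranked 544 and 10258, and CG6602 1609 and 12191.

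**Figure D2:**
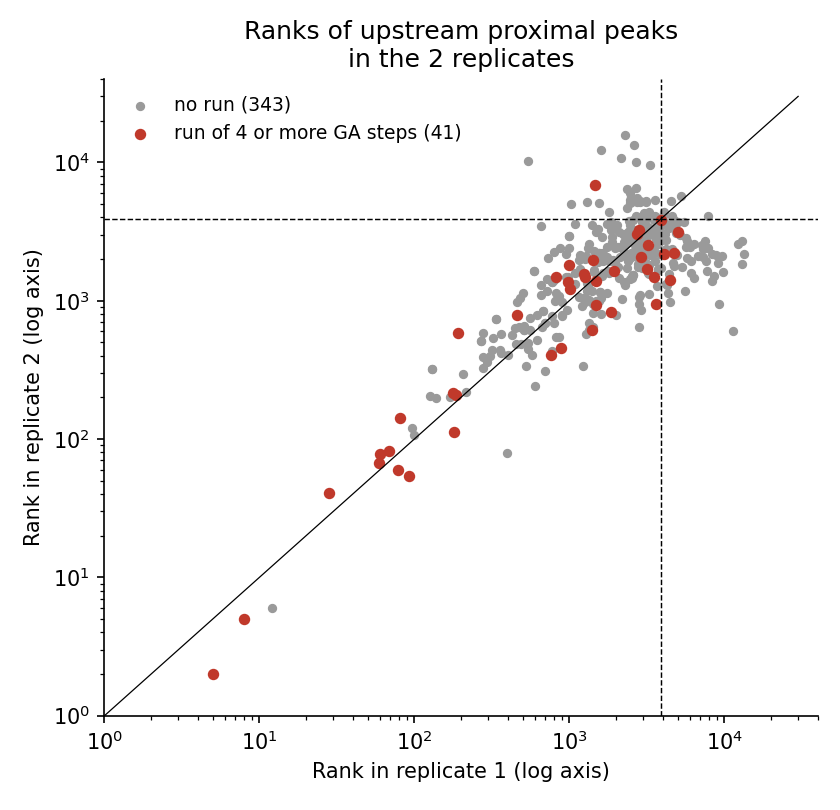
Rank of each upstream proximal peak in replicate 1 and in replicate 2 (log axes, rank 1 is the strongest), for the 384 with a peak in both. Red points hold a run of 4 or more GA steps within 100 bp of the summit, dashed lines mark rank 3921, and points near the diagonal have like ranks. The strongest peaks lie close to the diagonal and the spread is wider among weaker ones.

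Some replicate ranks belong to a neighbouring summit. The intervals of 32 members overlapped that of another optimal peak, a stronger one in 17 of them. The summit 674 bp upstream of Mad had a signal of 402.1 at rank 903, but shares its interval with a peak of rank 6, and so was given ranks 12 and 6 in the replicates. The replicate peaks whose summits lay nearest to it, 18 bp and 32 bp away, ranked 4729 and 480. When the replicate summit had to lie within 100 bp, a rule added after the data were seen, 258 members (66.2%, 61.2 to 70.8%) were among the strongest of both. The median gap to the nearest replicate summit was 16 bp in replicate 1 and 15 bp in replicate 2.

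Runs of GA steps lay at the summits themselves. A run is defined here as 4 or more GA dinucleotides, each starting 4 bases after the last, on either strand, with any 2 bases between. The measure was devised after these sequences and those of the other peaks had been looked at, so its counts are descriptions and are given with no test. It was found within 100 bp of 42 member summits (10.8%, exact interval 7.87 to 14.3%) and of 452 of the 3531 other optimal summits (12.8%, 11.7 to 13.9%), so it was no more frequent at the members. The members' own flanks, 2 windows of 101 bases centred 500 bp to either side, held it in 12 cases (3.08%, 1.60 to 5.31%). Of all windows of 201 bases in upstream proximal sequence, taken every 100 bp, 1.61% held it. Runs of 3 or more steps were found at 19.5% of members and in 12.8% of flanks, and runs of 5 or more at 7.44% and in 1.28%. Runs of 8 or more steps were found at 11 members and in 0 of the 390 pairs of flanks, which allows up to 0.941%.

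The runs sat close to the summit and were mostly mixed in sequence. The middle of the run was a median of 19.5 bp from the summit, and 35 of the 42 lay within 50 bp. In the 25 bp on either side of the summit 3.37% and 3.25% of member bases were inside a run, beside 4.46% and 4.36% at the other optimal summits. Only 8 of the 42 runs repeated 1 unit of 4 bases, and the other 34 mixed 2 or more. Of 225 units in all, GATG made up 20.4%, while GACT came to 18.2%, then GAAT with 12.9%, GATT with 10.7% and GAGA with 9.78%. GA repeats of period 2 therefore count as runs, but were a minority. In the sequences printed above, the run at CG3793 is nearly all of 1 unit and that at zfh1 mixes several. At CG10479 the longest run in the 201 bases around the summit has 7 steps and lies on the other strand from the one shown in capitals, at the right end of the printed window.

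**Figure D3:**
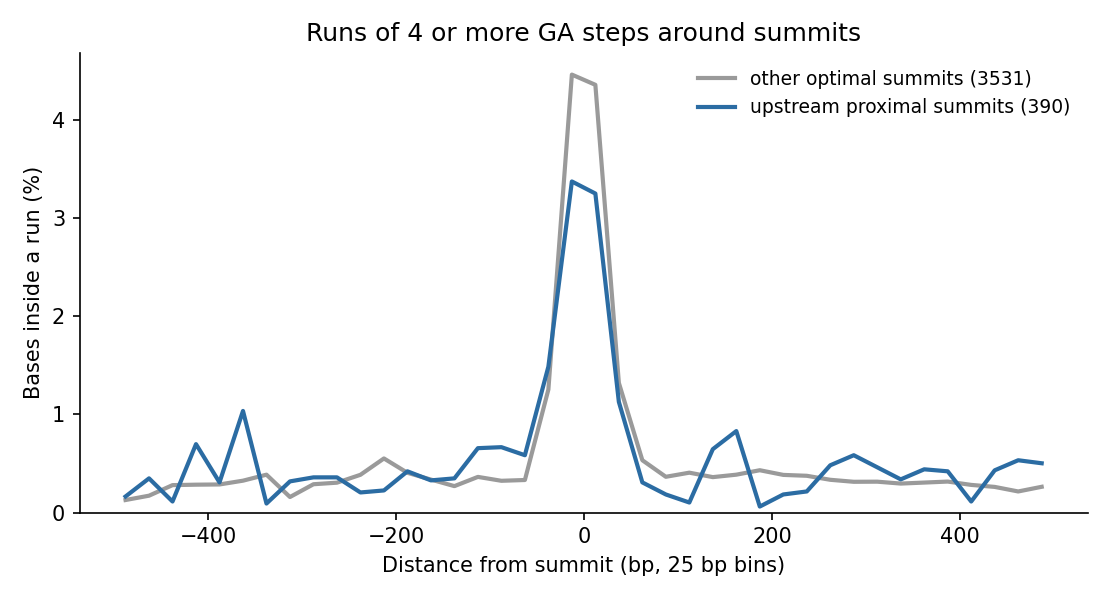
Percent of bases inside a run of 4 or more GA steps against distance from the summit, in bins of 25 bp, for the 390 upstream proximal summits and the 3531 other optimal summits. Both curves peak in the 2 central bins, at 3.37% and 4.46%, and stay near or below 1% from 75 bp outward.

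Runs were more frequent among strong peaks and were not a feature of upstream proximal peaks alone. All 8 of the strongest members held one, and 12 of the 20 strongest. Over the 5 groups by signal the share went from 17 of 78 (21.8%, 13.2 to 32.6%) in the strongest through 11, 4 and 8 to 2 of 78 (2.56%, 0.312 to 8.96%) in the weakest. Members with a run had a median signal of 338.9 and those without one of 206.9, with median ranks of 1247 and 2295 in replicate 1 and 1264.5 and 1992 in replicate 2. Signals ran from 127.2 to 14267.9 with a run and from 123.0 to 2122.8 without, so the groups overlapped up to 2122.8 and only members with a run lay above that. A run was found at 4.12% of summits within 500 bp of a TSS (3.14 to 5.31%), at 7.22% of those downstream (5.02 to 9.99%) and at 21.4% beyond 2000 bp (19.5 to 23.4%). The share at upstream proximal summits lay between those of promoter and distant summits. Whether repeated sequence, or the reads' mapping to it, moves with these peaks was not tested.

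**Figure D4:**
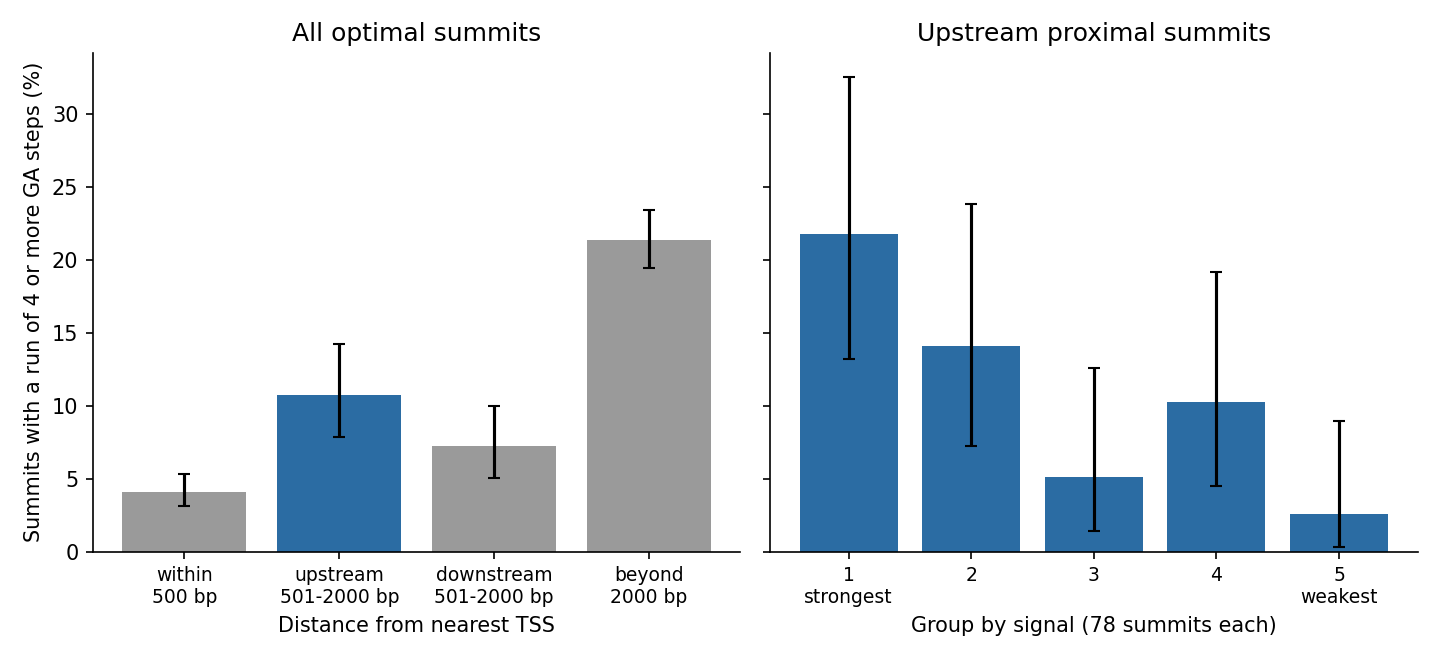
Percent of summits with a run of 4 or more GA steps within 100 bp, by distance class of all optimal summits (left) and by group of 78 in order of signal among the 390 upstream proximal summits (right). Bars are shares with exact 95% intervals: the share is 10.8% upstream proximal beside 4.12% within 500 bp and 21.4% beyond 2000 bp, and falls from 21.8% in the strongest group to 2.56% in the weakest.

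Base composition around the members was low in G and C. The 201 bases around a member summit had a median GC content of 36.3%, beside 41.1% in the flanks of the same peaks and 41.8% in all upstream proximal windows. The other optimal summits had 36.8%. Members with a GA run were an exception within the group, at 47.8%, beside 35.3% for those without. The strongest 78 members, where such runs were most frequent, had a median of 39.1%, and the other 4 groups by signal lay between 34.8% and 36.8%.

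Of 23 known sequence motifs searched on either strand within 100 bp, most were found about as often at the members as in their flanks. The A and T rich TATAAA was found at 34.9% of members (30.1 to 39.8%), beside 26.9% of flanks, 23.2% of upstream proximal windows and 31.8% of other optimal summits. The E-box CATATG was found at 10.8% (7.87 to 14.3%), beside 7.95% of flanks, 6.19% of windows and 7.82% of other optimal summits. AGATAAG, bound by GATA factors, was found at 3.85% (2.17 to 6.26%), beside 1.54% of flanks, 2.35% of windows and 3.40% of other optimal summits. Several motifs were found less often than in the flanks. GAGAGAG, which GAGA factor binds, was at 4.87% of members (2.96 to 7.50%) and in 10.8% of flanks (7.87 to 14.3%), while 2.54% of windows and 4.22% of other optimal summits held it. The E-box CAGCTG was at 5.38% of members, in 9.74% of flanks and at 7.19% of other optimal summits. GGGCGG, bound by Sp and Krüppel-like factors, was at 5.13% of members, in 8.46% of flanks and at 4.39% of other optimal summits. For TATAAA and for the GATA, GAGA and Sp motifs the share at other optimal summits lay within the members' interval. The part of base composition in these counts was not tested.

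A pair of promoter elements found at many housekeeping genes was absent from the members' windows. TATCGATA, the DNA replication-related element, was at 0 of 390 members, which allows up to 0.941%. It was in 0.513% of flanks, at 1.81% of other optimal summits and in 0.430% of upstream proximal windows. GGTCACAC, bound by M1BP, was also at 0 of 390 and in 0% of flanks, beside 1.10% of other optimal summits and 0.307% of windows. The flank and window shares all lay below the limit of 0.941%. Members lie more than 500 bp from a protein-coding TSS by rule, while 1383 of the other optimal summits lie within 500 bp of one. GTGGGAA, bound by the Notch pathway's Su(H), was at 2.31% of members (1.06 to 4.34%), 2.56% of flanks, 2.60% of windows and 2.35% of other optimal summits. CAGGTAG, bound by the early zygotic activator Zelda, was at 0.769% (0.159 to 2.23%), beside 2.31% of flanks, 1.14% of windows and 1.08% of other optimal summits.

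The members were nearest to 347 genes, 3.84% of the 9030 protein-coding genes that have any upstream proximal sequence by this rule. Of these, 92 also had an optimal summit within 500 bp of a TSS (26.5%, exact interval 21.9 to 31.5%), beside 9.47% of the 9030. That share moved with the TSS set and with the list: it was 14.0% with only the 5′-most TSS and 42.8% with the 7842 strongest pooled peaks. The 9.47% is no background for these settings, whose own share over all genes is not given here. More than 1 member was nearest to 39 genes, 36 with 2 and 3 with more. HmgZ had 4 members, with signals of 1277.7, 306.2, 180.2 and 125.7 at distances of 564, 769, 1514 and 1844 bp from its alternative start sites. All lay in introns, the weakest within HmgD alone and the others where HmgZ and HmgD overlap. The first pair shares an interval and the replicate ranks of 130 and 322. The NFAT gene, of a calcium-linked transcription factor family, had 3 in introns, at 682, 934 and 1663 bp with signals of 179.1, 453.2 and 854.2. The third, shn, is described with the Dpp pathway.

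The 33 gene lists described from here on were chosen with earlier results of these data known. Their shares and intervals are descriptions, with no test and no allowance for the number of lists. The Enhancer of split complex, a cluster of Notch target genes on 3R, was the gene list with the highest share. It holds genes for bHLH repressors and for small Bearded family proteins, which temper Notch signalling, and the corepressor gene gro. Of its 11 genes with upstream proximal sequence 5 had a member summit (45.5%, exact interval 16.7 to 76.6%), beside 3.84% of the 9030 genes. With the strongest peaks of replicate 2 alone 36.4% had one, and with those of replicate 1 alone 27.3%. The genes of the complex are neighbours, which the interval takes no account of. Beside E(spl)m5-HLH the signals were modest: 296.2 at E(spl)m3-HLH, 268.0 at E(spl)malpha-BFM, 208.0 at E(spl)m2-BFM and 129.8 at E(spl)m7-HLH. E(spl)malpha-BFM ranked 1644 in replicate 1 and 1579 in replicate 2, E(spl)m2-BFM 3112 and 1756, and E(spl)m7-HLH 6779 and 2096. Only the m5-HLH summit held a run of GA steps by the threshold of 4, with 6. Within the 52.3 kb of the complex and 2 kb to either side lay 12 optimal summits, of which these 5 are members and the other 7 lay within 500 bp of a TSS.

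**Figure D5:**
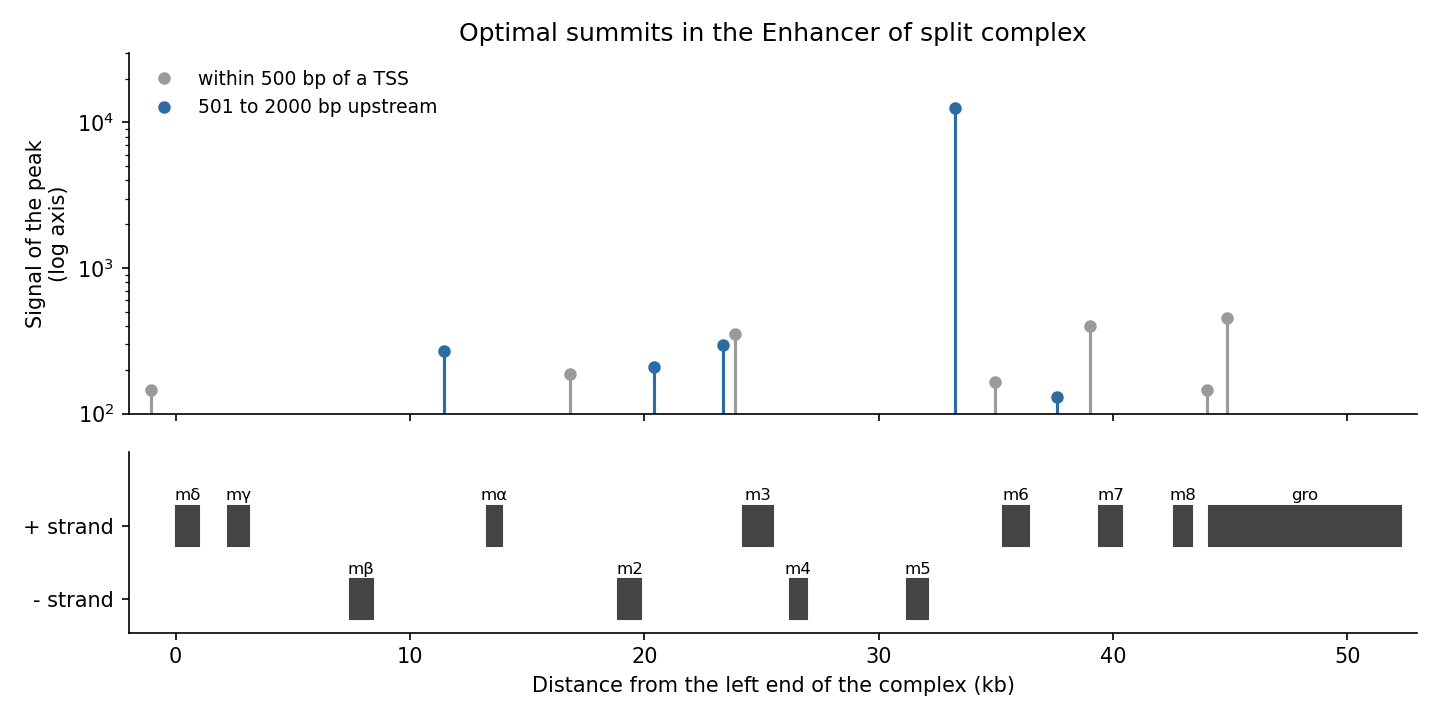
Optimal summits along the Enhancer of split complex, with the signal of each peak (log axis) above and the genes on either strand below, against distance from the left end of the complex in kb. Blue stems are the 5 summits 501 to 2000 bp upstream of a TSS and grey stems those within 500 bp. The summit by m5 reaches 12572.6, while all others lie between 129.8 and 450.1.

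Genes of the Dpp pathway, the fly's BMP signalling route, had 4 of 13 with a member summit (30.8%, 9.09 to 61.4%), again beside 3.84%. They were shn, whose zinc finger protein acts with the Smads, with 3 members; brk, which encodes a repressor of Dpp targets, with 2; the Smad gene Mad; and tkv, a type I receptor gene. The strongest summit at shn, 1822 bp upstream of a start site, had a signal of 446.0 and ranked 772 in replicate 1 and 770 in replicate 2. The other summits at shn had signals of 203.5 and 153.0. At brk the signals were 395.3 and 144.2, with ranks of 658 and 1295 for the stronger. At tkv the signal was 123.1 and the ranks were 13093 and 2703. No GA run was found at any member summit of these 4 genes. All these summits lay in introns, which at brk belonged to another gene, CG1677. Without replicate 2 the Dpp share fell to 15.4%, and with only the 5′-most TSS it was 1 gene, 7.69%. The 7 member summits of the Dpp list came to 22.8 per 100 kb of upstream proximal sequence, beside 3.50 in all such sequence.

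In the EGF and FGF receptor pathways 4 of 17 genes had a member (23.5%, 6.81 to 49.9%), beside 3.84% of the 9030 genes. The ETS repressor gene aop had 2, with signals of 344.7 and 201.1, both between genes. The feedback inhibitor gene sty also had 2, at 226.6 and 134.6, whose intervals overlap. The kinase gene Raf had 1 at 127.9 and the FGF receptor gene htl 1 at 127.2, which held a run of 5 steps. These signals were around or below the members' median of 212.9 apart from the stronger summits at aop and sty. With only the 5′-most TSS the share was 6.67%. The 6 member summits of this list came to 17.0 per 100 kb of upstream proximal sequence, beside 3.50 in all such sequence. In the core Notch pathway, counted apart from the Enhancer of split complex, 1 of 9 genes had a member, the glycosyltransferase gene fng (128.1; 11.1%, 0.281 to 48.2%), which had none without replicate 1. In the Hedgehog and Wingless list 1 of 19 had one, the receptor gene fz (404.5; 5.26%, 0.133 to 26.0%). Both intervals held 3.84%.

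Genes of tissue and cell fate had scattered members. In the muscle and mesoderm list 3 of 25 had one (12%, 2.55 to 31.2%): zfh1, the FoxF gene bin (464.5) and htl. In the proneural and neuroblast list 2 of 20 had one (10%, 1.23 to 31.7%). They were the epithelial and neuroblast factor gene grh (798.2, ranks 601 and 243) and brat (635.6, ranks 542 and 451). The translational repressor gene brat had a second member of 126.5. The dorsoventral list had 2 of 13, brk and the NF-kappaB gene dl (148.8). Its share of 15.4% (1.92 to 45.4%) was 7.69% without replicate 2. The axon guidance list had 1 of 26, ena (3.85%, 0.0973 to 19.6%). The epithelial polarity list had 2 of 8 (25%, 3.19 to 65.1%), the scaffold genes dlg1 (193.3) and sdt (174.9). All these intervals held 3.84%, the share of all genes with upstream proximal sequence. No member was nearest to any of 8 Hox genes, 13 gap and terminal genes, 9 pair-rule genes, 13 neuronal differentiation genes, 10 glial genes, 21 myoblast fusion and sarcomere genes, 11 gut and GATA factor genes or 12 tracheal genes. With so few genes a share of 0 allows upper limits from 16.1% to 36.9%, all above the background of 3.84%. Several of these zeros also depended on the list. Without replicate 2 Hox genes stood at 25% and without replicate 1 glial genes at 10%. The myoblast fusion and sarcomere list had 4.76% with replicate 1 left out and the same with replicate 2 left out. With the 7842 strongest pooled peaks, Hox, glial, gut, tracheal, gap and myoblast lists had shares from 7.69% to 27.3%.

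Hormone, chromatin and growth lists each had from 0 to 3 genes with a member, to be read beside 3.84% of the 9030 genes. That background takes no account of how much upstream proximal sequence each gene has. Per 100 kb of it, the ecdysone list had 5.57 member summits, the Polycomb and trithorax list 20.4 and the cell cycle list 16.4. Each of these densities rests on only 3 summits, and no interval was computed for them. All upstream proximal sequence had 3.50. Of 20 ecdysone response and nuclear receptor genes 3 had a member (15%, 3.21 to 37.9%): the ecdysone-induced factor gene Eip93F (648.8, ranks 453 and 487), the ecdysone receptor gene EcR (209.0) and the nuclear receptor gene Hr51 (177.1). Of 13 Polycomb and trithorax group genes 2 had one (15.4%, 1.92 to 45.4%), the Polycomb group gene ph-d, with 2 summits of 770.8 and 323.9 that share an interval, and the chromatin remodeller gene kis (209.5). Of 13 cell cycle genes 3 had one (23.1%, 5.04 to 53.8%): the E2F factor gene E2f1 (168.6, with a run of 4 GA steps), the kinase gene Cdk4 (133.7) and fzr (128.3), an activator gene of the anaphase-promoting complex. All 3 were below the members' median, and the cell cycle share was 7.69% without replicate 1. No cell cycle gene had one among the 1960 strongest optimal peaks. The Sp and Krüppel-like list had 1 of 6, cbt. Single genes were found in the potassium channel list (Irk1, 181.4 and 168.9, 1 of 17), the heat shock list (Hsc70-3, 138.5, 1 of 10) and the germ cell list (pum, 134.3, 1 of 7), the last of which had none without replicate 1. None of 6 insulator protein genes had a member, and 16.7% had one without replicate 2.

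Housekeeping and late terminal genes had few members or none. No member was nearest to any of 38 cytosolic ribosomal protein genes with upstream proximal sequence (0%, upper limit 9.25%), although 18 of them had a summit within 500 bp of a TSS. None was found for 15 mitochondrial ribosomal protein genes or 26 proteasome genes (upper limits 21.8% and 13.2%). Oxidative phosphorylation genes had 2 of 41, COX7C (261.6) and COX7AL2 (243.5 and 136.2), 4.88% (0.596 to 16.5%), and 2.44% without replicate 2. None of 54 odorant receptor genes (upper limit 6.60%, and 1.85% without replicate 2) and none of 45 gustatory receptor genes (7.87%) had one. Of 107 cuticle protein genes 1 did, Cpr12A (163.2), a share of 0.935% (0.0237 to 5.10%) beside 3.84%. Each of these intervals held the background of 3.84%.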

How the data were processed

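The authors' deposited peak lists on dm6 were used. Per the sample notes, each replicate was called separately (30000 peaks each) and both were called as a pool (30000), with a control. The irreproducible discovery rate over these gave the optimal list (3921). The deposited values are signal per peak and summit offset. Not given in the sources used here are the aligner, caller, thresholds and the scaling of the signal. Sequencing depth is unknown. Intervals are exact Clopper-Pearson or Poisson at 95% and cover counting error only. One sample field names CG8281 as the antibody, while the description names anti-GFP.

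TSSs came from Ensembl release 115 (BDGP6) and sequence from the RefSeq genome of the same assembly. Every arm position was classed as the summits were, and windows every 100 bp gave background motif shares. The scripts ran in Python 3.11.15 with SciPy 1.17.1, pandas 2.3.3, NumPy 2.4.6 and Matplotlib 3.10.9. Only the nearest-TSS rule and the finding of GA-step runs were tested on simulated data. With 1 group, no test was made.

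The members, the 33 gene lists, the 23 motifs and the GA-step measure were chosen with earlier results of these data known. Words of 6 and 8 bases were looked at in the members and in other optimal peaks before the GA-step measure and its threshold were set. After a first pass of list counts, accessory gland genes caught by mistake were removed from the cuticle list, whose only called gene stayed the same. The symbols E(spl)m1, nct, CF2, sltr and Unc-89 were not matched. Genes named are those nearest to the 20 strongest members, all with 3 or more members, up to 3 per list by signal, and the summits at either limit of the range. Others named for replicate differences or shared intervals, and further genes of a list, were chosen after their values were seen. Alternatives were each replicate's own strongest peaks, stricter and looser lists, other TSS sets, interval centres, close summits left out, other overlaps, windows and run lengths.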

Additional observations from a re-analysis of the deposited data

How the results depend on the processing

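Of 77 alternatives for the summary values, 55 stayed within the interval of the reported value, or within 1.5 times a count. No paired analysis was possible because no group of samples was compared. With only the 5′-most TSS there were 251 members, 6.40% of summits, the density ratio was 0.919, on the other side of 1, and 14.0% of nearest genes had a promoter summit too. TSSs of all biotypes gave 11.0% of summits. The stronger upper part of the optimal list (1960 peaks) gave 190 members, 181 genes, 20.4% with a promoter summit and GA runs at 15.3%. The 7842 strongest pooled peaks gave 792 members, 659 genes, 42.8%, GA runs at 6.44%, a median signal of 121.6 and a GC content of 37.3%, and the window of 50 bp a GC content of 34.7%. GA runs of 3 or more steps were at 19.5% and of 5 or more at 7.44%. Without 1 replicate the share of genes with a promoter summit was 30.1 to 31.6%. The share of members among the strongest of both replicates was 92.8% with double the number of strongest peaks, 98.5% with any peak and 66.2% with replicate summits within 100 bp. Coding sequence held at most 0.505% of members under any of 8 alternatives. Of 264 values for gene lists 247 stayed within their intervals, and of 115 for motifs 96. The alternatives at 3 and 5 steps, and at 100 bp, were chosen after seeing the data. Depth is unknown, so what weaker sites were missed cannot be told.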
